A study of Homo sapiens with 4 samples.

Results

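The 10 alpha and beta tubulin genes TUBA1A, TUBA1B, TUBA1C, TUBA4A, TUBB, TUBB2A, TUBB2B, TUBB3, TUBB4B and TUBB6 were followed through polysome profiling of the human breast cancer line MDA-MB-231. They were taken by symbol from a table of 28198 genes, as genes whose mRNAs are controlled while they are being translated, and all 10 were in it. Polysome profiling sorts mRNAs on a sucrose gradient by how many ribosomes they carry. In both genotypes the cells were depleted of METTL3, an mRNA methyltransferase, and then given it back from a lentivirus, either as the wild type (WT) or with the K177Q substitution, which mimics acetylation of a lysine. All cells received cycloheximide at 100 µg/mL for 5 min, which halts ribosomes on mRNA, and lysates were run through a 10 to 50% sucrose gradient. The fractions were pooled into a sub-polysome sample (ribosomal subunits and single ribosomes) and a polysome sample. Poly(A)-selected RNA of both was sequenced, and 4 libraries were analysed, all labelled replicate 2. Further columns of the table, named as replicate 1 of the same conditions, match no listed sample and are not analysed here. With 1 library analysed per condition, values below come without an error between replicates, and conditions were compared without a test.

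Alpha and beta tubulin pair into the dimers from which microtubules are built, and human cells hold several genes (isotypes) of each. Cells match tubulin synthesis to demand by autoregulation: when free dimers are in excess, the protein TTC5 binds the beginning of a tubulin chain as it leaves the ribosome, and the mRNA being translated is degraded. TTC5 does so through the adaptor SCAPER and the CCR4-NOT complex, which removes poly(A) tails. The signal is carried by the N-terminal residues, methionine, arginine and glutamate followed by cysteine in alpha or by isoleucine in beta tubulin, and only an mRNA on ribosomes can be read in this way. Newly made tubulin is folded by the chaperonin CCT and by tubulin cofactors.

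The beginnings of the coding sequences are shown because they encode this signal. Each is the opening 30 bases in GENCODE 44 on GRCh38, 5' to 3', with the first 4 codons in capitals, and gamma-tubulin TUBG1, which nucleates microtubules, is given for contrast.
TUBA1A: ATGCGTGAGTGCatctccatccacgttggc
TUBA1B: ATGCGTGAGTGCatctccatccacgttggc
TUBA1C: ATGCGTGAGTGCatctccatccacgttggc
TUBA4A: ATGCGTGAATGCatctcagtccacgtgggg
TUBB: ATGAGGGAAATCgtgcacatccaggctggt
TUBB2A: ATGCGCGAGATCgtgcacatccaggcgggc
TUBB2B: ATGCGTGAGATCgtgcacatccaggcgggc
TUBB3: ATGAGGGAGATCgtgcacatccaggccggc
TUBB4B: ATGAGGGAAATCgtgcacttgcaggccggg
TUBB6: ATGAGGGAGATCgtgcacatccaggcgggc
TUBG1: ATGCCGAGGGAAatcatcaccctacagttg

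The 3 TUBA1 genes were identical over all 30 bases. TUBB shared its capitals with TUBB4B, and TUBB3 shared them with TUBB6, so the 10 genes used 6 different spellings. Of 20070 canonical coding sequences that begin with ATG, 12 opened with one of these 6 spellings (0.0598%), namely the 10 members, TUBB8 and TUBB8B. When synonymous codons were counted as well, 10 genes opened with the codons for methionine, arginine, glutamate and isoleucine, and 9 genes with those ending in cysteine. All 19 bear a tubulin symbol: besides the members they were TUBB1, TUBB4A, TUBB8 and TUBB8B, and TUBA3C, TUBA3D, TUBA3E, TUBA8 and TUBAL3. In TUBG1 a proline codon stands between the start codon and the arginine codon, and it was outside this set.

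The members' genes lie on several chromosomes of GRCh38. TUBA1B (chromosome 12 from 49127782 to 49131397), TUBA1A (chromosome 12 from 49184686 to 49189080) and TUBA1C (chromosome 12 from 49188736 to 49274600) are neighbours. TUBA1A and TUBA1C lie on opposite strands and overlap where both annotated genes begin. The libraries are directional, but whether strand was used in assigning fragments is not given in the sources used here. TUBB2A (chromosome 6 from 3153497 to 3157544) and TUBB2B (chromosome 6 from 3223324 to 3231730) are also neighbours, while TUBB is elsewhere on the chromosome from 30717435 to 30725538. The remaining members are TUBA4A on chromosome 2 from 219249710 to 219277902, TUBB3 on chromosome 16 from 89921392 to 89938761, TUBB4B on chromosome 9 from 137241287 to 137243707, and TUBB6 on chromosome 18 from 12307669 to 12344320. Every canonical transcript has 4 exons, and the coding sequences with their stop codon span from 1335 bases in TUBB to 1356 in TUBA1A and TUBA1B. Coding sequences of alpha members were 84.6% to 97.3% identical to each other, those of beta members 81.3% to 98.1%, and alpha and beta 57.9% to 60.3%. TUBB2A and TUBB2B were the closest pair. Of all 100-base stretches of the TUBB2A transcript, 55.6% also occur in another alpha or beta tubulin gene or pseudogene. For TUBB2B this was 48.7%, against 37.2% for TUBA1B, 21.2% for TUBA1A, 12.3% for TUBA1C and 0% for TUBB6. The annotation holds 15 TUBA and 35 TUBB pseudogenes. How the authors assigned fragments that map to several places is not given in the sources used here, so the split within the TUBA1 group and between TUBB2A and TUBB2B is uncertain.

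Levels are in FPKM, fragments per kilobase of transcript relative to the mapped fragments of a library, so they can be compared between genes per length. The sum of FPKM over genes was between 767949 and 1037594 per library. The table gives no counts. Taking the lowest group of values as single fragments, each library would hold roughly between 24900000 and 26600000 fragments. The limits chosen for that group bound this figure, so the likeness of the libraries in it was not measured. METTL3 itself had 9.39 FPKM (sub-polysome) and 38.7 FPKM (polysome) in WT cells, and 5.07 and 29.5 in K177Q cells, lower in both fractions of the latter. Its introduced and remaining endogenous mRNAs cannot be told apart. The line is known as mesenchymal and hormone receptor-negative. Of the genes looked up as marks of the line, VIM (vimentin) was at 677 to 1543 FPKM. AXL was at 158 to 235 FPKM and CD44 at 110 to 151 FPKM, whereas ZEB1 was low, at 2.32 to 4.76 FPKM. The epithelial CDH1 was at 0.219 to 0.632 FPKM, and the receptor genes ESR1 and PGR were at no more than 0.0119 FPKM.

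Tubulin mRNAs were among the abundant mRNAs of these cells, and most of this came from a few isotypes. Among the alpha genes, TUBA1B, a broadly expressed alpha isotype, had 576 FPKM in the WT sub-polysome and 2239 in the WT polysome library, and 628 and 1980 in K177Q cells. It ranked 47 among all genes in both polysome libraries. TUBA1C, a close relative, had 209 and 956 FPKM in WT cells and 233 and 847 in K177Q cells. In each library TUBA1C was the second alpha gene by level, below TUBA1B and above TUBA1A. TUBA1A, the alpha isotype known for its role in neurons, had 53.9 and 173 FPKM in WT cells and 58.2 and 169 in K177Q cells. TUBA4A, the most diverged alpha member in sequence, had 21.0 and 53.2 FPKM in WT cells and 22.8 and 56.1 in K177Q cells, the lowest alpha values in all 4 libraries.

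TUBB, the broadly expressed class I beta-tubulin, had the highest level of all 10 members in every library. It had 1362 FPKM in the WT sub-polysome and 3107 in the WT polysome library, and 1527 and 2935 in K177Q cells. TUBB4B, the second beta gene by level, had 578 and 1821 FPKM in WT cells and 559 and 1665 in K177Q cells. Its level was close to that of TUBA1B in WT sub-polysome RNA and lower in the other 3 libraries. TUBB6, a minor isotype with broad expression, had 244 and 470 FPKM in WT cells and 250 and 471 in K177Q cells. These values of TUBB6 hardly differed between the genotypes in either fraction. TUBB3, the neuronal class III beta-tubulin that carcinoma cells can also make, had 90.6 and 135 FPKM in WT cells and 93.8 and 121 in K177Q cells. TUBB2A had 47.5 and 98.9 FPKM in WT cells and 46.9 and 104 in K177Q cells. TUBB2B, known mainly from the developing brain, was the lowest member by far, at 1.23 and 2.02 FPKM in WT cells and 1.96 and 1.59 in K177Q cells. TUBB2B was the only member whose polysome value lay below its sub-polysome value in any genotype, and this was so in K177Q cells. All 9 of the other alpha and beta tubulin genes that were looked up (TUBA3C, TUBA3D, TUBA3E, TUBA4B, TUBA8, TUBAL3, TUBB1, TUBB4A and TUBB8) had a mean under 1 FPKM, and the highest of them was TUBAL3 at 0.207 FPKM.

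**Figure D1:**
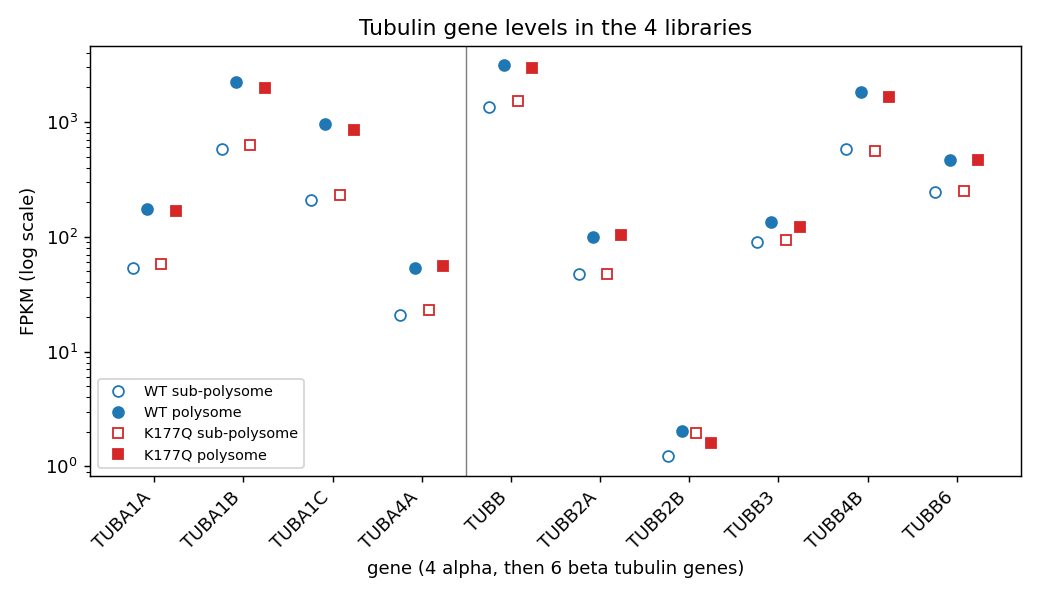
FPKM (log scale) of the 10 tubulin genes in each of the 4 libraries, with open symbols for sub-polysome and filled symbols for polysome RNA, circles for WT and squares for K177Q, 1 library per symbol. Polysome values lie above sub-polysome values in both genotypes for 9 genes, and the exception is TUBB2B in K177Q cells, at 1.96 FPKM in sub-polysome and 1.59 FPKM in polysome RNA.

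To ask how strongly each mRNA was loaded with ribosomes, translation efficiency was computed as polysome FPKM over sub-polysome FPKM, after 0.1 was added to each. This was done where the mean over the libraries reached 1 FPKM, which left 10905 genes and all 10 members. Each library is scaled on its own, so the absolute value of this ratio depends on the scaling, and the members are read against all genes in the same ratio. Tubulin mRNAs lay high in this distribution in both genotypes. In WT cells 9 of the 10 were at least 1.5-fold higher in polysome than in sub-polysome RNA, against 28.1% of all genes, and the remaining TUBB3 stood at 1.49. In K177Q cells 8 of the 10 were, against 30.2% of all genes, the others being TUBB3 at 1.29 and TUBB2B at 0.82. No member was at least 1.5-fold lower in polysome RNA, against 19.1% of all genes in WT and 21.3% in K177Q cells. The median translation efficiency of the members was 2.40 in WT and 2.33 in K177Q cells, beside 1.11 and 1.12 for all genes. The 2000 genes whose mean reached 50 FPKM had medians of 1.22 and 1.07. Without TUBB2B, the medians of the other 9 members were 2.53 and 2.46.

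The alpha mRNAs had the highest values. TUBA1C had a translation efficiency of 4.57 in WT and 3.63 in K177Q cells, at percentile 99.8 and 98.9 of all genes. TUBA1B followed with 3.88 and 3.15, at percentile 99.5 and 97.7. TUBA1A stood at 3.20 and 2.91, and TUBA4A at 2.53 and 2.46. The 4 alpha genes thus kept the same order in both genotypes, and all lay at or above percentile 93.0 of all genes.

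The beta mRNAs ranged wider and mostly lower. TUBB4B, at 3.15 in WT and 2.98 in K177Q cells, lay among the alpha genes, at percentile 98.2 and 97.0. TUBB, the most abundant member, had 2.28 and 1.92, and TUBB2A had 2.08 and 2.22. TUBB6 had 1.92 and 1.88. TUBB3 had the lowest translation efficiency among the 9 members above 10 FPKM, at percentile 71.3 in WT and 59.7 in K177Q cells. The median of the 6 beta genes was 2.00 in WT and 1.90 in K177Q cells, and that of the 4 alpha genes 3.53 and 3.03. Alpha and beta ranges overlapped through TUBB4B. TUBB and TUBB4B, which share the spelling of the first 4 codons printed above, differed in translation efficiency, 2.28 against 3.15 in WT cells, and so did TUBB3 and TUBB6, 1.49 against 1.92.

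**Figure D2:**
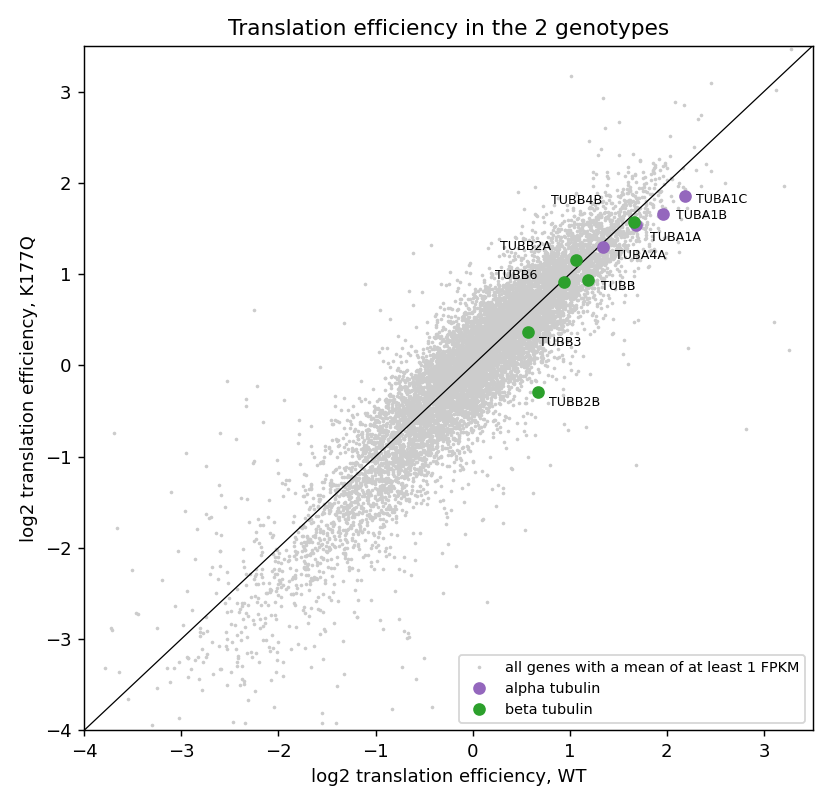
log2 translation efficiency (polysome over sub-polysome FPKM) in WT (horizontal) and K177Q cells (vertical), with 1 grey point per gene, the 4 alpha genes in purple, the 6 beta genes in green and the line of equality, 48 of 10905 genes lying outside the axes. TUBA1C and TUBA1B sit at the upper right with log2 values of 2.19 and 1.96 in WT cells, and TUBB2B lies apart below the line.

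The length of a coding sequence limits how many ribosomes fit on an mRNA, and the members are nearly alike in it. They were therefore set beside the 434 other compared genes whose canonical coding sequence has 1300 to 1400 bases. The median translation efficiency of these was 1.17 in WT and 1.19 in K177Q cells, and 32.7% of them reached 1.5 in WT cells. A single one of the 434 reached the WT value of TUBA1C, and 2 reached that of TUBA1B. They are KYNU, an enzyme of tryptophan breakdown, at 5.09 and CCNB1, the mitotic cyclin B1, at 4.37, both named after their values were seen. TUBG1, whose coding sequence has 1356 bases as in TUBA1B, had 137 and 259 FPKM in WT cells, a translation efficiency of 1.90, and 148 and 256 FPKM in K177Q cells, 1.72. It lay within the range of the beta members and below all alpha members.

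Shares within a library do not depend on how libraries are scaled against each other, so the make-up of the tubulin mRNA pool was compared between fractions. The summed alpha level was 0.370 of the summed beta level in the WT sub-polysome library and 0.607 of it in the WT polysome library. In K177Q cells the corresponding ratios were 0.380 and 0.576. The polysome pool was therefore richer in alpha relative to beta mRNA than the sub-polysome pool in both genotypes. TUBA1B made up 67.0% of the alpha level in the WT sub-polysome and 65.4% in the WT polysome library, and 66.7% and 64.9% in K177Q cells. The part of TUBA1C was 24.3% and 28.0% in WT cells and 24.7% and 27.8% in K177Q cells. Within the beta level, TUBB went from 58.6% in the sub-polysome to 55.2% in the polysome library of WT cells, and from 61.6% to 55.4% in K177Q cells. TUBB4B went the other way, from 24.9% to 32.3% in WT and from 22.5% to 31.4% in K177Q cells. TUBB3 had 3.90% and 2.40% in WT cells and 3.79% and 2.29% in K177Q cells. Each of these differences between fractions had the same direction in both genotypes, which are single libraries. All 10 members together took 0.354% of the FPKM of the WT sub-polysome and 1.106% of that of the WT polysome library, and 0.330% and 1.087% in K177Q cells.

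**Figure D3:**
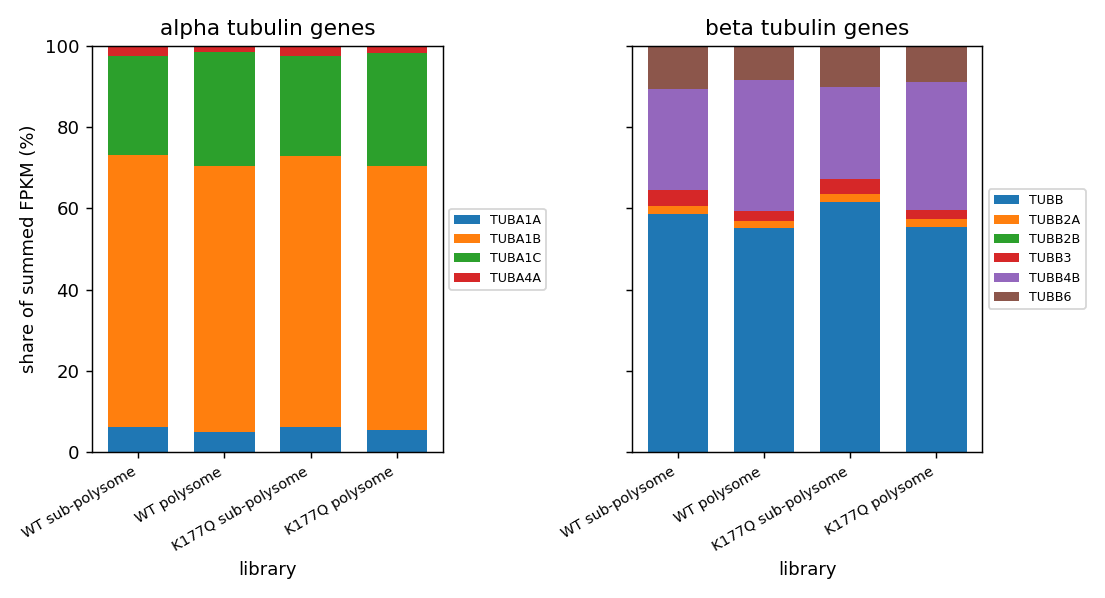
Share (%) of each gene in the summed FPKM of the 4 alpha genes (left) and of the 6 beta genes (right), 1 bar per library. TUBB4B takes a larger share of the beta level in polysome than in sub-polysome RNA, 32.3% against 24.9% in WT and 31.4% against 22.5% in K177Q cells, and TUBB2B is too low to be seen.

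Between K177Q and WT cells, tubulin mRNAs other than TUBB2B differed by at most 1.26-fold in translation efficiency in FPKM. No member was at least 1.5-fold higher in K177Q cells, where 4.08% of all genes were, and 1 member, TUBB2B, was at least 1.5-fold lower, where 7.03% of all genes were. Among the 2000 more abundant genes, 0% were higher and 8.60% lower. The other 9 members had log2 ratios of K177Q to WT translation efficiency between -0.33 and 0.09, or between 0.79-fold and 1.07-fold. The SD of this ratio was 0.288 over all 10 members and 0.140 over these 9, from which the outlying TUBB2B was left out. It was 0.455 over all genes, of which many are much less abundant, and 0.272 over the 2000 more abundant ones, with no gene left out.

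The sign of most of these ratios rested on the scaling of the libraries. In FPKM as deposited the median log2 ratio of the members was -0.17 with 9 of 10 below 0, whereas after every library was rescaled to the same total (TPM) it was 0.13 with 7 of 10 above 0. The median of all genes shifted along with it, from -0.01 to 0.29. Relative to all genes, the members' median was -0.16 in FPKM, in TPM, with median-of-ratios size factors and with equal totals outside the ribosomal protein genes. Each scaling shifts every gene by nearly the same amount, which subtracting the median of all genes removes. This sameness was therefore fixed in advance and is no check of the value. TUBB2B, at -0.94, TUBA1C, at -0.32, TUBA1B, at -0.29, and TUBB, at -0.24, were the lowest relative to all genes in FPKM, and TUBB2A, at 0.10, was the single member above them. The 2000 more abundant genes had a median of -0.21 in FPKM, below that of the members.

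By fraction, the members' log2 ratio of K177Q to WT had a median of -0.11 in polysome RNA and 0.11 in sub-polysome RNA in FPKM as deposited, whereas in TPM these were -0.01 and -0.09. All genes had medians of -0.02 and -0.004 in FPKM. The 2000 more abundant genes had medians of -0.09 and 0.125, near those of the members. No member was past 1.5-fold in either direction in polysome RNA, where 2.13% of all genes were higher and 3.13% lower. In sub-polysome RNA, TUBB2B was at least 1.5-fold higher, where 4.01% of all genes were, and no member was lower, where 2.94% were. TUBA1B and TUBA1C had the lowest polysome ratios after TUBB2B, at -0.18 and -0.17, and sub-polysome ratios of 0.12 and 0.16. For TUBB these were -0.08 and 0.17, and for TUBB4B -0.13 and -0.05. The 4 alpha genes lay close together in sub-polysome RNA, between 0.11 and 0.16 in FPKM, and rescaling to TPM adds -0.206 to each.

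**Figure D4:**
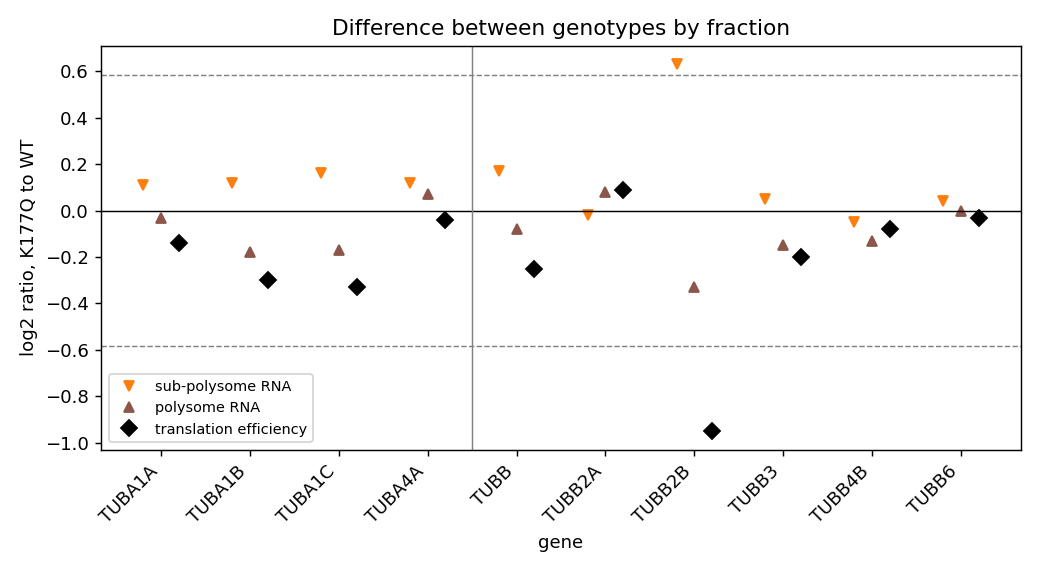
log2 ratio of K177Q to WT in FPKM as deposited for each tubulin gene, in sub-polysome RNA, in polysome RNA and in translation efficiency (the difference of the other ratios), with dashed lines at 1.5-fold. Only TUBB2B crosses a dashed line, at 0.63 in sub-polysome RNA and -0.95 in translation efficiency, and the signs of the smaller ratios depend on the scaling of the libraries.

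**Figure D5:**
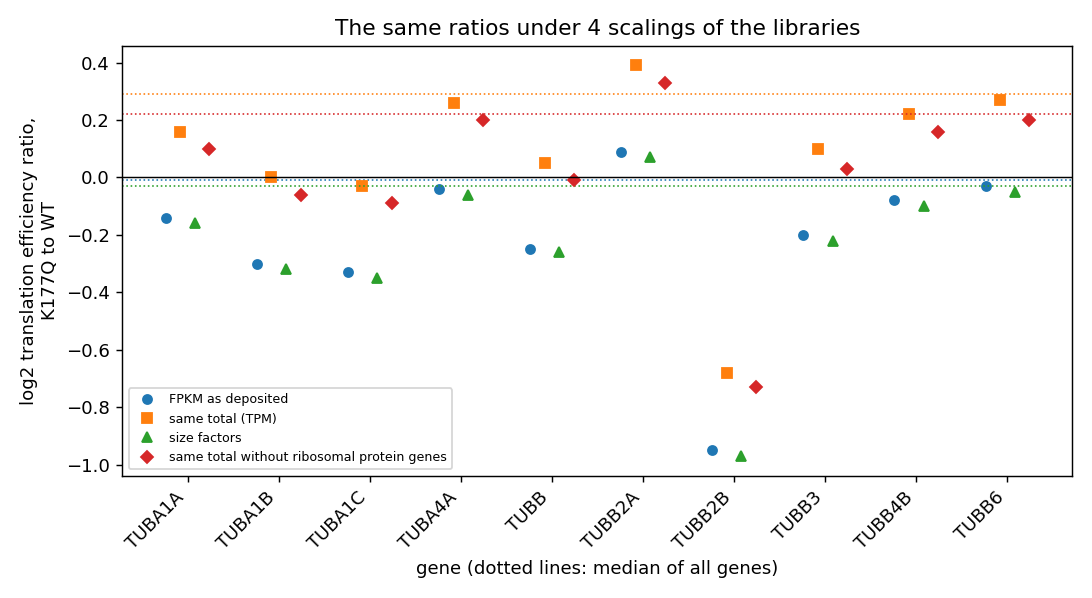
log2 ratio of K177Q to WT translation efficiency of each tubulin gene under 4 scalings of the libraries, with dotted lines at the median of all genes under each. The members move with the median of all genes, from -0.01 in FPKM to 0.29 in TPM, and the distances of the genes from that median stay nearly the same. This follows from the scalings, which shift every gene nearly alike.

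TUBB2B, the single member past 1.5-fold, is also the one with the least material. At the approximate depth it had between 63 and 102 fragments per library, against at least 1146 for each other member. Counting alone would then give its log2 ratio of -0.95 a standard error of 0.319. This does not include the effect of fragments shared with TUBB2A, which was not tested. Its level is a small fraction of that of TUBB2A, to which its coding sequence is 98.1% identical. When TUBB2A and TUBB2B were summed before the ratio was taken, translation efficiency was 2.07 in WT and 2.16 in K177Q cells, a log2 ratio of 0.06. This sum is nearly all TUBB2A and follows it, so it does not bear on the value of TUBB2B. The summed TUBA1A, TUBA1B and TUBA1C had 839 and 3368 FPKM in WT cells and 920 and 2997 in K177Q cells. The translation efficiency of this sum was 4.01 and 3.26, a log2 ratio of -0.30 in FPKM. Their canonical transcripts have 1672, 1627 and 2823 bases, so a sum of FPKM still depends on how shared fragments were split.

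The genes whose pattern over the 4 libraries was most like that of the tubulins were sought among 1992 other genes at or above a mean of 50 FPKM. The measure was the distance between centred log2 values, taken to the median profile of the 9 members above 10 FPKM, which happened to be that of TUBA4A. Among the 5 nearest were KRT8, a keratin, at 0.053, SND1, an RNA-binding nuclease, at 0.062, HSP90AB1, a cytosolic chaperone, at 0.074, and TALDO1, an enzyme of the pentose phosphate pathway, at 0.075. For KRT8 the values were 271 and 674 FPKM in WT and 282 and 691 in K177Q cells. The median distance of the 1992 genes was 1.155. The farthest of the 9 members was TUBB3 at 0.860, a distance within which 36.1% of the 1992 genes lay, and TUBA1C followed at 0.732 and TUBA1B at 0.520.

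Of the factors of tubulin autoregulation, TTC5, which reads the nascent chain, and its adaptor SCAPER had low levels, though not they alone. TTC5, on chromosome 14 from 20256558 to 20305960, had 0.943 and 1.92 FPKM in WT cells and 1.21 and 2.01 in K177Q cells. Its log2 ratio of translation efficiency was -0.28 in FPKM and 0.0015 in TPM. SCAPER had a mean of 0.515 FPKM and was not compared. The other genes of this list were the CCR4-NOT subunits, of which CNOT8 had the highest mean, 32.9 FPKM, and CNOT11 had 16.2 FPKM. CNOT6L had the lowest of these, 1.51 FPKM, beside a mean of 1.52 FPKM for TTC5. Of the 11 autoregulation genes compared, 0 were at least 1.5-fold higher and 0 lower in K177Q cells. The median log2 ratio of these 11 was 0.09, and the median translation efficiency in WT cells was 1.06.

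The folding machinery of tubulin was looked up as a list of chaperonin subunits and a list of cofactors with prefoldin. All 8 chaperonin subunits, which fold actin and tubulin, reached 1.5 in WT translation efficiency, against 28.1% of all genes, from CCT6A at 1.56 to CCT2 at 4.15, with a median of 3.12. Tubulin cofactors and prefoldin, which hands chains to the chaperonin, had a median of 1.27 over 12 genes, from PFDN1 at 0.49 to TBCD at 3.67, and 4 of them reached 1.5, a share near that of all genes. The ranges of the lists overlapped. In K177Q relative to WT cells, 0 genes of either list were past 1.5-fold, with medians of -0.14 and -0.09 in FPKM, near those of the members and likewise dependent on the scaling.

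In the other lists, single genes were past 1.5-fold between the genotypes, where 4.08% of all genes were higher and 7.03% lower. Of 4 gamma, delta and epsilon tubulins, TUBD1 was lower in K177Q cells, with a log2 ratio of -1.58 and values of 0.519 and 1.78 FPKM in WT and 1.34 and 1.36 in K177Q cells. Of 9 genes of the gamma-tubulin ring complex, which seeds microtubules, TUBGCP4, at 0.62, and TUBGCP6, at 0.64, were higher in K177Q cells. All of these have means under 3 FPKM, and with 1 added to each FPKM in place of 0.1 the ratios were -0.86 for TUBD1, and 0.42 for TUBGCP4 and 0.28 for TUBGCP6, both under 1.5-fold. The short MZT proteins of the same complex had the lowest WT translation efficiency of that list, 0.29 for MZT1, 0.35 for MZT2B and 0.41 for MZT2A, while TUBGCP2 had 2.50. Of 12 genes of tubulin modification, 0 were past 1.5-fold in either direction, with a median log2 ratio of 0.05 and a median WT translation efficiency of 1.04. Of 15 microtubule-associated or microtubule-destabilizing genes, 0 were, with a median log2 ratio of 0.24 and a median WT translation efficiency of 1.4. STMN1, which sequesters tubulin dimers, had 476 and 950 FPKM in WT cells and 404 and 857 in K177Q cells, a translation efficiency of 2.00 and 2.12.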

How the data were processed

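Polysome and sub-polysome RNA of WT and K177Q METTL3 cells was analysed in 4 libraries, 1 per condition, all labelled replicate 2. The authors deposited FPKM per gene, per the labels from directional libraries, and the submitters' processing notes name STAR 2.7, StringTie 2.1.5 and hg38. The annotation and the handling of multi-mapping fragments are not given in the sources used here. In the table, 4 further value columns are named as replicate 1 of the same conditions. They could not be matched to a listed sample and are not analysed here.

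Translation efficiency was polysome over sub-polysome FPKM with a pseudocount of 0.1, where the mean reached 1 FPKM. Genes past 1.5-fold were counted over the whole table, and no test was made, since the columns used give 1 library per condition. Folds are on the log2(FPKM + 0.1) scale. Members, 8 gene lists and the comparisons were chosen with earlier results of these data known. All 10 members were named, with METTL3, TTC5, list genes past 1.5-fold or at either end of a list, and the 5 genes nearest in profile, of which 1 is not reported here. KYNU, CCNB1, STMN1, CNOT8, CNOT11, CNOT6L, TUBGCP2 and the MZT genes were picked after their values were seen. Positions, transcripts and coding sequences are those of GENCODE 44 on GRCh38, the build of the submitters. Canonical coding sequences were aligned in pairs with Biopython 1.88.

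The approximate depth takes the median of FPKM times canonical length within log10 1.4 to 1.7 as 1 fragment. These limits were set after looking at the values, and they bound the depth that can result. The fragment numbers and standard errors derived from this depth are rough, and the latter cover counting error only. The calculation was tested on simulated data. Alternatives were other pseudocounts, filters, scalings, a 2-fold threshold and summed near-identical genes. Python 3.11.15, numpy 2.4.6, pandas 2.3.3 and matplotlib 3.10.9 were used.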

Additional observations from a re-analysis of the deposited data

Results flagged for a closer look

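TUBB2B was marked because its fractions differed in opposite directions in the genotypes, with a polysome over sub-polysome log2 ratio of 0.67 in WT and -0.29 in K177Q cells, a difference of -0.95 that was not tested. Such opposite directions were found for 1338 of the 10905 genes compared, or 12.3%. The part that shared fragments and the low level of TUBB2B have in its value was not tested.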

How the results depend on the processing

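No paired analysis was possible because 1 library of each condition could be matched to a listed sample, which also means that none could be omitted in turn. The median log2 translation efficiency of the members was 1.26 in WT and 1.22 in K177Q cells in FPKM as deposited. It was 1.4 and 1.66 in TPM, 1.42 and 1.34 over the 8 members with a mean of at least 50 FPKM, and 1.12 and 1.06 after centring on all genes. In K177Q cells it was 1.11 with size factors, 1.44 with totals equal outside ribosomal protein genes and 1.11 with near-identical members summed. The median log2 ratio of K177Q to WT reversed to 0.13 in TPM and to 0.07 with totals equal outside ribosomal protein genes, and that within sub-polysome RNA to -0.09 under both. Before the pseudocount these scalings add a constant, 0.299 and 0.237, to the log2 ratio of any gene. They reversed TUBA1A to 0.16 and 0.10, TUBA4A to 0.26 and 0.20, TUBB3 to 0.10 and 0.03, TUBB4B to 0.22 and 0.16, and TUBB6 to 0.27 and 0.20. TUBB reversed to 0.05 and TTC5 to 0.0015 in TPM only, and the median of all genes to 0.29 and 0.22.

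The count of lower members was 1, and it was 0 with a minimum mean of 10 or 50 FPKM, which leaves TUBB2B out, with near-identical members summed, where TUBB2A sets the sum, and with the 2-fold threshold. The count of higher members was 0 under each of these settings. Of all genes, 445 were higher and 767 lower, against 2070 and 315 in TPM, 1509 and 341 with totals equal outside ribosomal protein genes, 1823 and 2140 without a minimum, 38 and 312 with a minimum of 10 FPKM, 0 and 172 with 50 FPKM, and 84 and 207 at 2-fold. With a pseudocount of 1, 159 were higher. Of 92 ratios of members under alternatives, 71 moved by less than 0.1 in log2, 10 moved further with their direction kept, and 11 reversed. A changed minimum mean, or the summing of other genes, leaves the ratio of a gene as it was. Part of the 71 therefore could not have moved. Among the members, depth limits TUBB2B most.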
